A study of Mus musculus with 6 samples.

Results

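Chronic restraint stress (CRST) was compared with the absence of restraint (CON) in the prelimbic cortex (PL), a part of the medial prefrontal cortex that takes part in the control of stress responses. CRST mice were held in a restrainer for 2 h daily over 14 days, CON mice were left unrestrained, and PL tissue was taken on post-stress day 22. All mice were C57BL/6 males of 3 months. The comparison uses 4 of the 6 bead arrays of the series, 2 of CRST and 2 of CON, and each array carried RNA pooled from 6 to 7 animals. The other 2 arrays came from CRST mice that were later restrained for 5 min daily over 14 days (CRST+RS5), and they served here only for the normalization and for the estimate of the spread. Because an array stands for a pool, the p-values measure the spread between pools and not between animals. In bulk tissue, fewer cells of a type and less RNA per cell cannot be told apart.

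The PL holds excitatory projection neurons in layers, inhibitory interneurons and glia, and it adjoins the meninges. Immediate early genes are transcribed within minutes of synaptic activity and their transcripts are short lived, whereas circadian clock genes cycle over the day in most tissues. Oligodendrocytes wrap axons in myelin, and their most abundant transcripts encode the proteins of the sheath. Restraint acts on the brain in part through glucocorticoids, the steroid hormones released by the adrenal gland under stress.

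Of 25697 probes, 12924 were detected (detection p under 0.05) on both CON or both CRST arrays and were compared as log2 signals after quantile normalization. Of these, 657 carry a gene name here, because the names come from the lists of genes that the study selected on these arrays. The number of named genes that differ in a group below is therefore no independent evidence of a direction. Between 12645 and 13407 probes were detected per array, and the arrays correlated across the compared probes at r = 0.994 to 0.997. CON replicate 1 was slightly closer to CRST replicate 1 (r = 0.9970) than to CON replicate 2 (r = 0.9965), and the CRST arrays correlated with each other at 0.995. The tissue carried the transcripts that mark cortical projection neurons. Tbr1, a transcription factor of deep layer neurons, had log2 signals of 12.23 and 12.08 in CON and of 12.05 and 12.34 in CRST, and Cux2, its counterpart in upper layers, had 10.77 and 10.82 in CON and 10.74 and 10.49 in CRST.

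Differences between CRST and CON were small, and few of them were present on both CRST arrays. At the study's criterion of 1.2-fold in the group means, 215 probes differed (1.66% of those compared), with 102 higher in CRST (0.789%) and 113 lower (0.874%). Names were carried by 98 of the higher and 106 of the lower probes. Any list drawn from the 657 named probes therefore holds more such probes through the selection. Every list count below is to be read beside 98 higher and 106 lower of the 657 named probes. Over all compared probes the shares are 0.789% and 0.874%. On 145 of the 215 probes (1.12% of all; 0.518% higher and 0.604% lower) both CRST arrays lay on the same side of both CON arrays, whereas 29.4% of all compared probes had such non-overlapping arrays at any size of difference. Only 36 probes (0.279%) had each CRST array at least 1.2-fold from the CON mean in the same direction, 19 above (0.147%) and 17 below (0.132%). These 36 are called held in what follows. Of the 102 higher probes, 22 passed 1.2-fold on CRST replicate 1 alone and 61 on CRST replicate 2 alone, and of the 113 lower probes 37 passed on replicate 1 alone and 59 on replicate 2 alone. Whatever the group means, 1.37% of all probes lay past 1.2-fold above the CON mean on replicate 1 and 1.9% below it, against 3.24% and 3.09% on replicate 2, so that more probes were apart from CON on replicate 2. The CRST arrays lay on opposite sides of the CON mean, each by at least 1.2-fold, on 37 probes that were low on replicate 1 and high on replicate 2, and on 3 probes the other way round. No probe passed an adjusted p of 0.05 in limma (smallest 0.9999), and 427 (3.3%) had an unadjusted p under 0.05. An exact permutation test of 2 against 2 arrays cannot give a two-sided p below 0.333. The values below are therefore descriptions of 4 pools, each difference with the standard error of the limma fit.

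**Figure D1:**
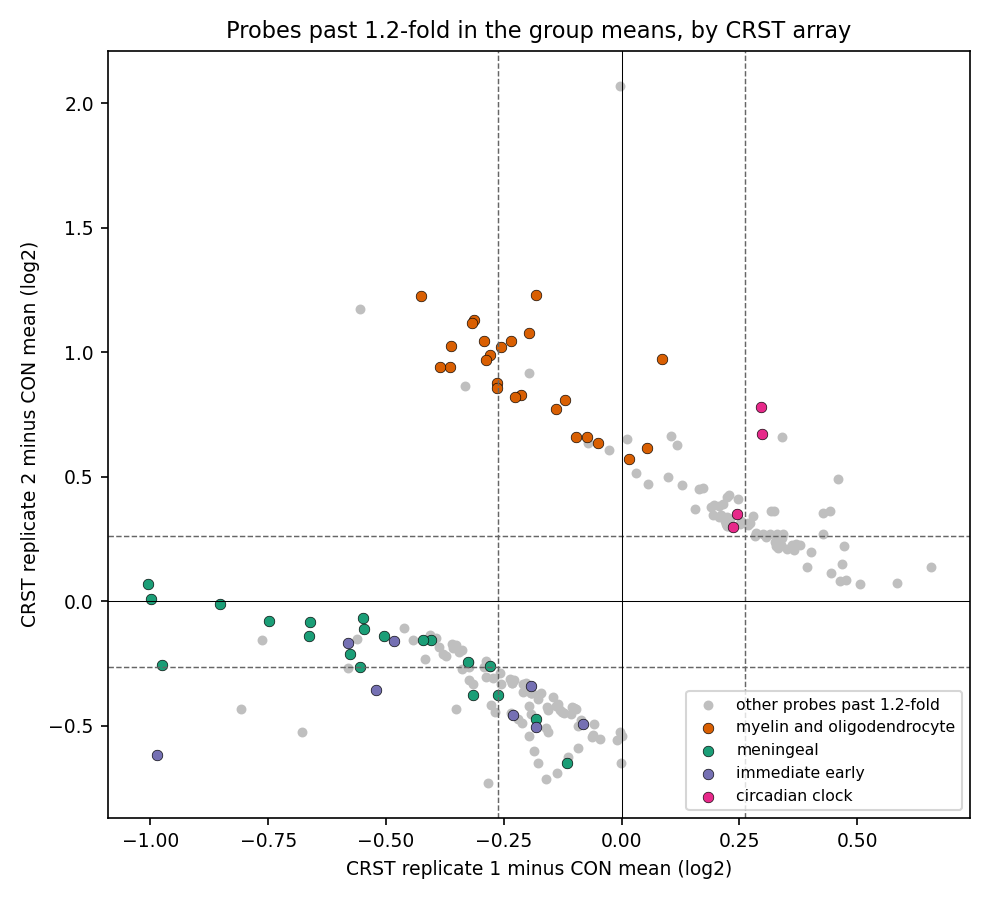
Log2 difference of CRST replicate 1 (horizontal) and of CRST replicate 2 (vertical) from the CON mean for the 215 probes past 1.2-fold in the group means; dashed lines mark 1.2-fold. The 36 held probes lie in the upper right and lower left corners beyond both lines, and the myelin and oligodendrocyte probes lie high on replicate 2 and mostly low on replicate 1.

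Immediate early genes were lower in CRST, and Arc and Fos were lower on both CRST arrays by the criterion. Of 41 listed, 11 have a named probe, of which 8 lay past 1.2-fold below CON and 0 above it, with a median difference of -0.32 against 0.00 over all compared probes. Among all 657 named probes compared, which were selected on these arrays, 106 lay past 1.2-fold below CON and 98 above it. Arc, which encodes a postsynaptic regulator of AMPA receptor traffic, had log2 signals of 12.07 and 11.72 in CON and of 10.91 and 11.28 in CRST. The CRST arrays lay at -0.99 and -0.62 from the CON mean, and the 1.74-fold difference (-0.80 ± 0.15, SE) was the largest decrease of all compared probes. Fos, a subunit of the AP-1 transcription factor, had 10.06 and 9.60 in CON and 9.31 and 9.47 in CRST (-0.44 ± 0.14). The gap between its nearest arrays was small, and without CON replicate 1 the difference stood at -0.21, without CON replicate 2 at -0.67.

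Of the named phosphatases that switch off MAP kinases, Dusp1 and Dusp6 were lower without overlap, each mainly on a different CRST array, whereas Dusp3 stood at -0.26 ± 0.14 with overlapping arrays and Dusp16 at 0.01 ± 0.08. Leaving out CON replicate 1 or 2 gave -0.10 or -0.43 for Dusp3, and leaving out CRST replicate 1 or 2 gave -0.42 or -0.11. Dusp1, an early gene induced by both activity and glucocorticoids, had 12.24 and 12.17 in CON and 11.63 and 12.04 in CRST (-0.37 ± 0.13), so that replicate 1 carried most of the difference. It stood at -0.17 without CRST replicate 1 and at -0.58 without CRST replicate 2. Dusp6, which acts on ERK, had 12.68 and 12.66 in CON and 12.48 and 12.33 in CRST (-0.27 ± 0.08), with the lower value on replicate 2. It fell under 1.2-fold without CON replicate 1, at -0.26, and without CRST replicate 2, at -0.19. Egr2, a zinc finger transcription factor, followed Dusp1, with 8.65 and 8.59 in CON and 8.14 and 8.46 in CRST (-0.32 ± 0.11). Without CRST replicate 1 it stood at -0.16 and without CRST replicate 2 at -0.48. Inhba, which encodes the activin subunit beta A, had 9.65 and 9.52 in CON and 9.35 and 9.13 in CRST (-0.34 ± 0.11), and -0.23 without CRST replicate 2. The arrays of the groups overlapped for Npas4, a transcription factor specific to neurons, with 9.39 and 8.99 in CON and 9.01 and 8.69 in CRST (-0.34 ± 0.14). Leaving out CON replicate 1 or 2 gave -0.14 or -0.54 for Npas4, and leaving out CRST replicate 2 gave -0.18. Nptx2, a secreted pentraxin that clusters AMPA receptors, had 12.76 and 12.52 in CON and 12.56 and 12.15 in CRST (-0.29 ± 0.15), again with overlap. It was carried by CRST replicate 2, at -0.08 without that array and -0.49 without CRST replicate 1, and leaving out CON replicate 1 gave -0.17. The other 3 listed genes, Ier3, Fosb and Klf2, were within 1.2-fold, at -0.18, -0.17 and -0.11. Of 5 named genes that respond to glucocorticoids or serve their receptor as chaperones, Dusp1 and Cdkn1a, the cell cycle inhibitor p21, were past 1.2-fold, and Cdkn1a had 10.25 and 10.18 in CON and 10.06 and 9.69 in CRST (-0.34 ± 0.12). Cdkn1a was carried by replicate 2, since it stood at -0.53 without CRST replicate 1 and at -0.16 without CRST replicate 2.

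The promoter of Dusp1 is shown because it holds the palindrome bound by CREB, a factor through which neuronal activity induces early genes, as well as an E-box. The window covers 250 bases before the start (RefSeq, GRCm38.p6, chr17:26508473-26508722, minus strand), and capitals mark the cyclic AMP response element TGACGTCA, 143 bases before the start, and the E-box CACGTG, 126 bases before it.
Dusp1: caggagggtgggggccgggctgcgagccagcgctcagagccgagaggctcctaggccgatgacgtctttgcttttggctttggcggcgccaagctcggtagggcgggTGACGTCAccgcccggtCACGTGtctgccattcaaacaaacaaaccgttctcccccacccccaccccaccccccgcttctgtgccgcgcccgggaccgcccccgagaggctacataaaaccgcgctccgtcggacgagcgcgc
Among 32851 mouse promoter windows of this length, 1.55% hold TGACGTCA and 6.02% hold CACGTG; both motifs read the same on either strand. In the same windows Fos, Dusp6 and Npas4 hold neither, and 1 of the 5 windows of Egr2 holds an E-box and none TGACGTCA. Arc was not matched. The serum response element was found in 4 of the 5 Egr2 windows, 3 of which overlap and share the same match, in none of the windows of Dusp1, Fos, Dusp6 and Npas4, and in 1.47% of all windows. A match is a stretch of letters and not evidence of binding. Only exact matches within these 250 bases were searched, so a window without a match does not show that the gene lacks such sites.

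The 4 listed clock genes with a named probe were higher in the CRST mean, with Ciart and Dbp held on both arrays. Names come from genes selected on these arrays, so this is no evidence for clock genes as a class. Among all 657 named probes compared, 98 lay past 1.2-fold above CON and 106 below it. Of 23 listed clock genes, 4 have named probes, 5 in all. On these 5 the CON arrays lay apart in the same order, with medians of -0.17 on replicate 1 and 0.17 on replicate 2, and CRST lay above them at 0.24 and 0.35. Ciart, a repressor of the CLOCK and BMAL1 activator, had log2 signals of 9.53 and 9.87 in CON and of 9.99 and 10.48 in CRST, a 1.45-fold difference (0.54 ± 0.16). It was the largest increase among the held probes. Dbp, a transcription factor of the PAR family that the clock drives, had 12.38 and 12.81 in CON and 12.90 and 13.27 in CRST (0.48 ± 0.19). The lowest CRST array of Dbp lay only slightly above the highest CON array, and the spread within CON was nearly as large as the difference of the groups. Nr1d1, the nuclear receptor REV-ERB alpha, had 8.94 and 9.19 in CON and 9.30 and 9.36 in CRST (0.27 ± 0.10). Without CON replicate 1 it stood at 0.14 and without CRST replicate 2 at 0.24. Per2, a core component of the clock's negative limb, has 2 probes, at 0.30 ± 0.17 and 0.21 ± 0.16, and the arrays of the groups overlapped on the latter. Without CON replicate 1 they stood at 0.16 and 0.03, without CRST replicate 2 at 0.24 and 0.11, and without CON replicate 2 the latter stood at 0.39. The probe named LOC100046232, which the table of names describes as NFIL3, a repressor that competes with Dbp for its binding sites, was in the opposite direction. It had 10.27 and 10.03 in CON and 9.80 and 9.72 in CRST (-0.39 ± 0.10), was held on both CRST arrays and stayed past 1.2-fold with any single array left out. The hour at which tissue was taken is not given in the sources used here.

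The promoter of Ciart is shown because E-boxes are the sites through which CLOCK and BMAL1 act. The 250 bases before its start (RefSeq, GRCm38.p6, chr3:95882229-95882478, minus strand) hold CACGTG, in capitals, 3 times, 116, 58 and 44 bases before the start.
Ciart: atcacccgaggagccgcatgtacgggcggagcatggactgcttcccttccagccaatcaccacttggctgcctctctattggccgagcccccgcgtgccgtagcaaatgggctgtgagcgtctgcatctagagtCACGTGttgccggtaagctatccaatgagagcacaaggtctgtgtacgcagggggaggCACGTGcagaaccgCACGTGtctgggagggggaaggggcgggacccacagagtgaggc
The windows of Dbp and Nr1d1 hold no CACGTG, and Per2 was not matched. Sequence outside the windows was not searched.

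**Figure D2:**
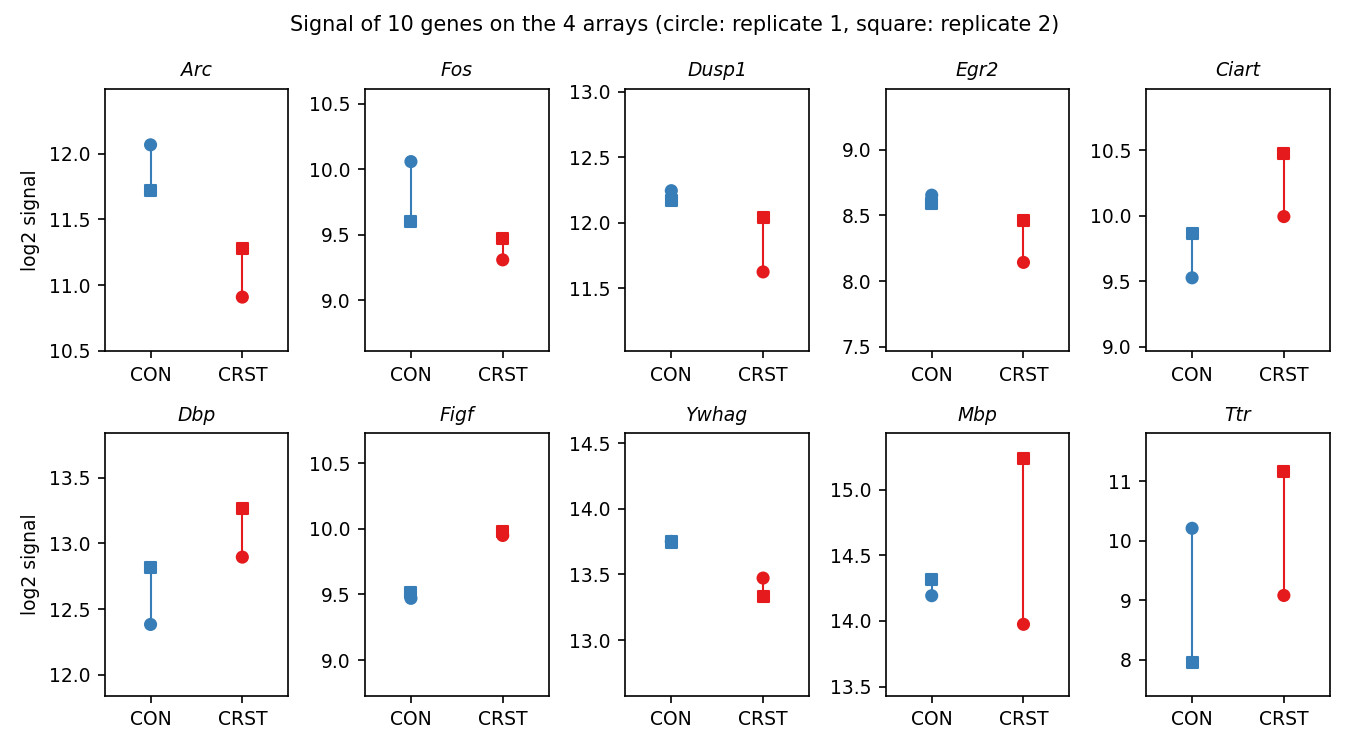
Log2 signal (vertical axes, own range per gene, wider for Ttr) of 10 genes on the CON (blue) and CRST (red) arrays; circles are replicate 1, squares replicate 2, and lines join the arrays of a group. Arc, Fos, Ciart, Dbp, Figf and Ywhag show both CRST arrays apart from both CON arrays, whereas Mbp and Ttr are high on CRST replicate 2.

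Genes of the synapse were split in direction, and nearly all were past 1.2-fold only on CRST replicate 2. Past 1.2-fold were 7 higher and 13 lower of 25 probes of 23 genes, and 22 had CRST replicate 2 alone past it. The list's median lay at -0.02 on CRST replicate 1 and at -0.33 on replicate 2, the array on which the myelin probes described below had a median of 0.97; the part of that array's cell composition in these values was not tested. The single held gene was Cbln4, a secreted synaptic organizer of the cerebellin family, with 9.57 and 9.35 in CON and 9.19 and 9.01 in CRST (-0.36 ± 0.11). It stood at -0.24 without CON replicate 1. Its relative Cbln1 lay the other way, with 10.23 and 10.30 in CON and 10.47 and 10.64 in CRST (0.29 ± 0.09), but was under 1.2-fold without CON replicate 1 (0.26) and without CRST replicate 2 (0.21). C1ql2, another secreted organizer with a C1q domain, had 8.98 and 8.94 in CON and 9.19 and 9.39 in CRST (0.33 ± 0.33), and 0.23 without CRST replicate 2. The standard error of C1ql2 is as large as its difference. Nell2, a secreted neuronal glycoprotein, and Cplx2, a complexin that controls vesicle fusion, were lower in the means, at -0.41 ± 0.20 and -0.37 ± 0.18, with overlapping arrays. They stood at -0.18 and -0.11 without CRST replicate 2 and at -0.12 and -0.18 without CON replicate 1. Leaving out CRST replicate 1 gave -0.65 and -0.63, and CON replicate 2 gave -0.71 and -0.56.

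Calb2 and Ywhag were among the neuronal genes that held. Calb2 encodes calretinin, a calcium buffer of some interneurons, and had 10.92 and 11.01 in CON and 10.38 and 10.69 in CRST (-0.42 ± 0.17). Among all 657 named probes compared, which were selected on these arrays, 106 lay past 1.2-fold below CON, 98 above it, and 35 were held. Calb2 is also on the list of olfactory bulb neurons. Of its 9 named probes, 5 lay past 1.2-fold below CON and 1, that of Cbln1, above it, and 4 were held. Of these, Pcdh21, a cadherin of mitral cells now named Cdhr1, had 9.27 and 9.14 in CON and 8.53 and 8.68 in CRST (-0.60 ± 0.26). Cdh22, another cadherin, had 8.94 and 9.08 in CON and 8.69 on both CRST arrays (-0.32 ± 0.09), and -0.25 without CON replicate 2. The median of the 9 probes was -0.27 on both CRST arrays. Th, the enzyme that limits dopamine synthesis and a marker of bulb interneurons, had low signals of 7.53 to 7.79 on the 4 arrays, and whether tissue of the bulb contributed was not tested. Ywhag, the gamma isoform of the 14-3-3 adaptor proteins, had 13.75 on both CON arrays and 13.47 and 13.33 in CRST (-0.35 ± 0.08). Its CON arrays differed by far less than the groups did, and it stayed past 1.2-fold with any single array left out.

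Axon guidance genes included members in both directions, with 4 higher and 8 lower past 1.2-fold among 20. Named probes were selected on these arrays, and of all 657 compared 98 were higher and 106 lower. Semaphorins of the same class lay in opposite directions, since Sema3e had 8.15 and 8.25 in CON and 8.52 and 8.47 in CRST (0.29 ± 0.08) while Sema3a had 9.86 and 9.87 in CON and 9.57 and 9.62 in CRST (-0.26 ± 0.08). Both are secreted guidance cues, and their arrays did not overlap between the groups. Only Sema3e was held, and it stood at 0.24 without CON replicate 1, whereas Sema3a fell just under 1.2-fold without CON replicate 2 (-0.26) and without CRST replicate 1 (-0.24). Pvrl3, the adhesion molecule nectin-3, had 10.62 and 10.70 in CON and 10.43 and 10.20 in CRST (-0.34 ± 0.11), with -0.23 without CRST replicate 2.

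Genes of membrane traffic and autophagy were split in direction, with close medians on both CRST arrays. Past 1.2-fold were 8 higher and 4 lower of 16 named probes, and the list's median was 0.12 on each CRST array, against 0.00 on the CON arrays. Dynll2, a dynein light chain, had the largest decrease, with 10.73 and 10.20 in CON and 9.66 and 10.03 in CRST (-0.62 ± 0.18). Rab3ip, an exchange factor for the vesicle GTPase Rab8, had 9.31 and 9.29 in CON and 8.98 and 9.03 in CRST (-0.29 ± 0.08). In the other direction lay 2 genes of endosomal sorting. Chmp5, a subunit of the ESCRT-III complex that buds vesicles into endosomes, had 7.85 and 7.91 in CON and 8.21 and 8.15 in CRST (0.30 ± 0.10). Vps26b, a subunit of the retromer that returns cargo from endosomes, had 8.59 and 8.69 in CON and 8.92 and 8.98 in CRST (0.31 ± 0.09), and 0.26 without CON replicate 1. Dynll2, Rab3ip and Chmp5 stayed past 1.2-fold with any single array left out. Rab3ip stood at -0.24 when arrays were scaled to a common median, and Chmp5 at 0.25 when 50 was added before log2. Ccdc91, a partner of the GGA adaptors of the Golgi, was at 0.32 ± 0.09 without overlap and at 0.22 without CRST replicate 2. Wdfy3, a scaffold of selective autophagy, had 8.79 and 8.62 in CON and 8.54 and 8.20 in CRST (-0.34 ± 0.15). Leaving out CON replicate 1 gave -0.25, CRST replicate 2 -0.16 and CRST replicate 1 -0.51.

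Of 15 named probes of mitochondrial and redox metabolism, 5 were higher past 1.2-fold and 0 lower, against 98 and 106 of all 657 named probes compared. The list's medians were 0.21 on CRST replicate 1 and 0.19 on replicate 2, against -0.00 and 0.00 on the CON arrays. The arrays did not overlap on 13 of the 15 probes, and these 13 include Romo1, a regulator of reactive oxygen species, which stood at -0.12. Over all compared probes 29.4% have no overlap at any size. Named probes were selected on these arrays, so this share is no base rate for the list. Cyb5r1, a cytochrome b5 reductase, had 8.40 and 8.41 in CON and 8.73 and 8.77 in CRST (0.34 ± 0.07), with the arrays of each group close together. Mdh1, the malate dehydrogenase of the cytosol, had 8.41 and 8.16 in CON and 8.56 and 8.59 in CRST (0.29 ± 0.10), and 0.16 without CON replicate 2. Coq2, an enzyme of coenzyme Q synthesis, had 11.26 and 11.58 in CON and 11.89 and 11.64 in CRST (0.35 ± 0.13). It was not held, and stood at 0.19 without CON replicate 1 and at 0.22 without CRST replicate 1. Idh2, the mitochondrial isocitrate dehydrogenase, had 8.73 and 8.75 in CON and 8.95 and 9.08 in CRST (0.27 ± 0.11), and 0.21 without CRST replicate 2.

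Genes of ribosomes and RNA handling were past 1.2-fold in both directions, 8 of 14 probes higher and 4 lower. Ythdf2, a reader of N6-methyladenosine that directs mRNA to decay, had 8.63 and 9.03 in CON and 9.28 and 9.20 in CRST (0.40 ± 0.16). The CON arrays of Ythdf2 differed by as much as the groups, and without CON replicate 1 its difference was 0.20. Rpsa and Rps3a, both of the small ribosomal subunit, were higher at 0.29 ± 0.09 and 0.33 ± 0.09, and both stood at 0.24 without CON replicate 1. Rps3a was at 0.25 without CRST replicate 2. Ribosomal protein genes have many processed copies in the genome, and the probes of these 2 genes were not checked against them. Rsrc1, a splicing factor rich in arginine and serine, had 9.42 and 9.41 in CON and 9.18 and 8.97 in CRST (-0.34 ± 0.10).

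Of 13 named regulators of transcription and chromatin, 6 were held, 3 in each direction, and the arrays of 11 did not overlap. Over all compared probes 0.279% were held and 29.4% did not overlap. Named probes were selected on these arrays, and 35 of the 657 named probes compared were held. These shares therefore cannot show that the list stands out. Zhx1, a homeobox protein with zinc fingers, had 9.25 and 9.28 in CON and 9.58 and 9.63 in CRST (0.34 ± 0.07). Zmynd11, a reader of methylated histone H3.3 in gene bodies, had 9.91 and 9.92 in CON and 9.63 and 9.62 in CRST (-0.30 ± 0.07). For both genes the arrays of a group lay closer to each other than to any array of the other group, and each stayed past 1.2-fold with any single array left out. With scaling to a common median in place of quantile normalization, Zhx1 stood at 0.41 and Zmynd11 at -0.23, under 1.2-fold. Sertad2, a transcriptional coregulator, had 8.82 and 8.69 in CON and 8.44 and 8.42 in CRST (-0.32 ± 0.08), and -0.26 without CON replicate 1. Hr, the corepressor hairless, was held by the criterion, but its CON arrays of 8.38 and 7.97 lay farther apart than the difference to CRST, at 7.84 and 7.91 (-0.31 ± 0.13). Without CON replicate 1 it stood at -0.10 and without CON replicate 2 at -0.51.

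Among secreted, matrix and immune genes, Figf, the lymphatic and vascular growth factor now named Vegfd, had arrays of each group close together. It had 9.47 and 9.51 in CON and 9.95 and 9.98 in CRST, a 1.39-fold difference (0.48 ± 0.07) with the widest gap between the groups of all named higher probes. Of 7 endothelial probes, 2 lay past 1.2-fold, both lower. These were both probes of Stard8, at -0.35 ± 0.11 and -0.29 ± 0.09. They stood at -0.21 on either probe without CRST replicate 2, and the latter at -0.23 without CON replicate 2. Emilin1, a glycoprotein of elastic matrix, had 8.004 and 8.16 in CON and 7.77 and 7.70 in CRST (-0.35 ± 0.10). Cd6, a receptor of T cells, had 9.43 and 9.25 in CON and 9.06 and 8.61 in CRST (-0.51 ± 0.17), and stayed past 1.2-fold with any single array left out. Of 9 named probes of microglia and border macrophages, only H2-Ab1, a chain of the class II antigen-presenting complex, was past 1.2-fold, at -0.37 ± 0.15 with overlapping arrays, and of 7 astrocyte probes only Ranbp3l was, at -0.27 ± 0.15 with overlapping arrays. Without CON replicate 2 these stood at -0.17 and -0.02, without CON replicate 1 at -0.57 and -0.51, and without CRST replicate 1 Ranbp3l stood at -0.20 and without CRST replicate 2 H2-Ab1 at -0.20. The medians of the astrocyte probes were -0.14 and -0.16 on the CRST arrays.

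**Figure D3:**
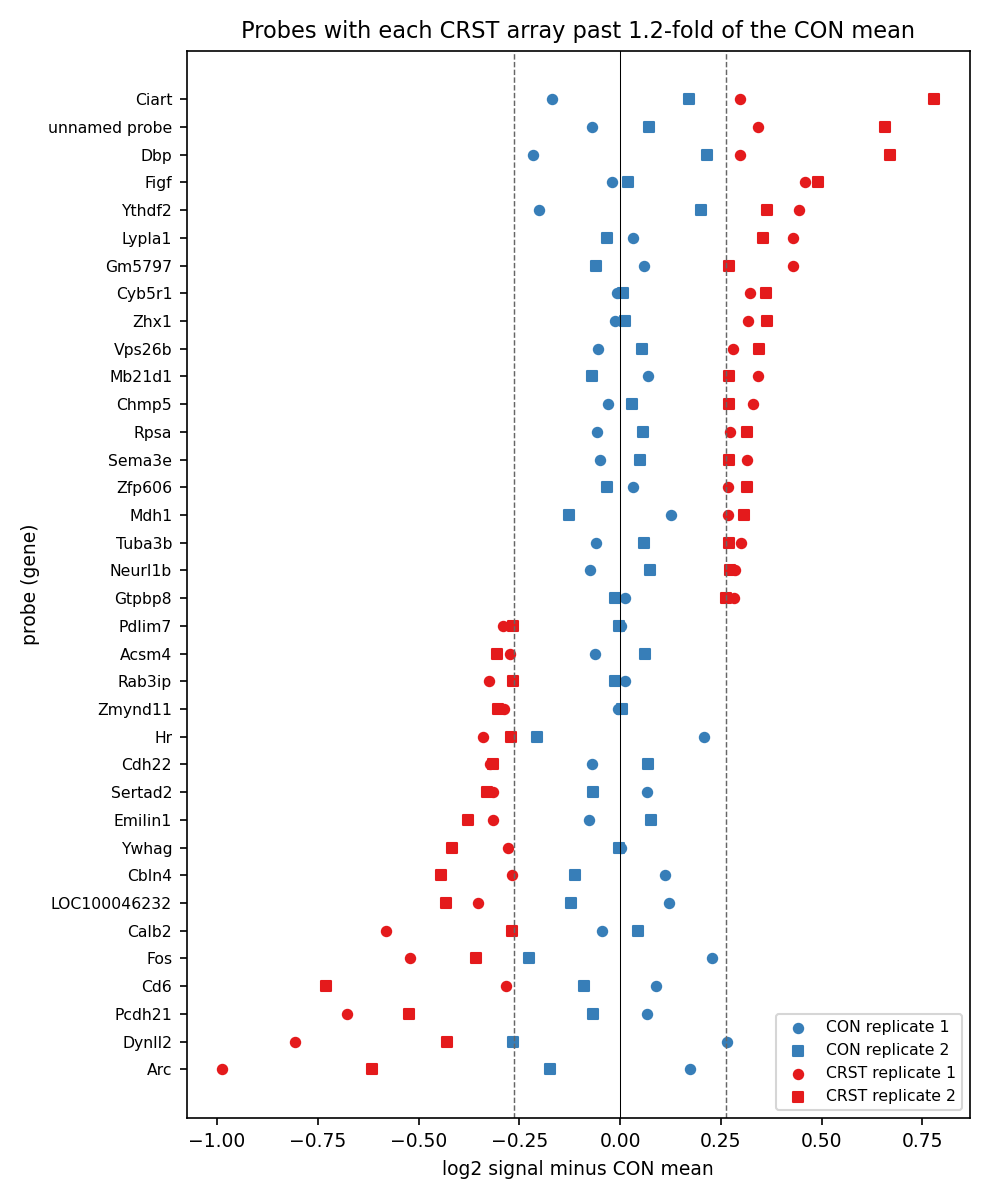
Log2 signal minus the CON mean (horizontal axis) of the 36 held probes (rows, by gene) on CON (blue) and CRST (red) arrays; circles are replicate 1, squares replicate 2, and dashed lines mark 1.2-fold. All CRST points lie beyond the dashed lines by construction, and the CON points of Dynll2, Hr, Fos, Dbp and Ythdf2 are spread most widely.

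Some other differences in the group means rested mainly on 1 array. The myelin genes are the clearest case. Of 17 named probes of 13 genes of the myelin sheath, 15 lay past 1.2-fold above CON in the means, yet none had both CRST arrays above both CON arrays. All 17 were highest on CRST replicate 2, where the median lay 0.97 above the CON mean, and the median on CRST replicate 1 was at -0.26. Mobp, a protein of compact myelin, had log2 signals of 9.50 and 9.56 in CON and of 9.35 and 10.76 in CRST on the probe with the larger mean difference (0.52 ± 0.36). Mog, a protein of the outer sheath, had 9.57 and 9.63 in CON and 9.28 and 10.72 in CRST (0.40 ± 0.36). The 15 probes for oligodendrocyte lipid, iron and maturation genes followed, with medians of -0.20 and 0.66 on the CRST arrays and all 15 highest on replicate 2. Fa2h, which makes the hydroxylated fatty acids of myelin lipids, had 11.05 and 11.15 in CON and 10.90 and 12.18 in CRST (0.44 ± 0.33). Without CRST replicate 2 the differences of Mobp, Mog and Fa2h were -0.18, -0.32 and -0.20, and without CRST replicate 1 they were 1.23, 1.12 and 1.08. In a fit without CRST replicate 1, 14 probes passed an adjusted p of 0.05 in limma, all higher, and the 13 named among them included probes of Mobp, Mal, Mog, Opalin, Mag and Mbp; the lone CRST array is then assumed to vary like the other groups.

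Most meningeal genes showed another pattern, low on CRST replicate 1 and high on CON replicate 2. Among the 657 named probes compared, which were selected on these arrays, 106 lay past 1.2-fold below CON and 98 above it. Of 28 probes for meningeal matrix and secreted factors, 16 lay past 1.2-fold below CON in the means and 0 above, and 21 were lowest on CRST replicate 1. Of these 16, 7 had no overlap between the groups and 1, Emilin1, was held. Mmp14, a membrane-bound matrix protease, was among the 7, with 9.57 and 9.64 in CON and 9.35 and 9.23 in CRST (-0.32 ± 0.09), and stood at -0.26 without CRST replicate 2. The medians of all 28 probes were -0.14 and 0.14 on the CON arrays and -0.30 and -0.12 on the CRST arrays, so that CON replicate 1 lay as low as CRST replicate 2. Differences of the CRST arrays from the CON array of the same number had medians of -0.22 and -0.33, though no source pairs these arrays. The 7 solute carriers of the meninges spread further, from -0.18 and 0.18 in CON to -0.50 and -0.04 in CRST. Ptgds, the prostaglandin D2 synthase secreted into cerebrospinal fluid, had 12.04 and 12.56 in CON and 11.32 and 12.04 in CRST (-0.62 ± 0.23). Ogn, a small proteoglycan, had 8.19 and 9.18 in CON and 7.69 and 8.70 in CRST (-0.50 ± 0.35), and Acta2, the actin of vascular smooth muscle, had 11.29 and 11.66 in CON and 10.71 and 11.32 in CRST (-0.46 ± 0.22). Without CON replicate 2 these 3 genes stood at -0.36, -0.00 and -0.27, and without CRST replicate 1 at -0.26, 0.01 and -0.15. Without CON replicate 1 they stood at -0.87, -0.99 and -0.64, and without CRST replicate 2 at -0.98, -0.9985 and -0.76. Ttr, the transthyretin of the choroid plexus, ranged most of all named probes, with 10.21 and 7.96 in CON and 9.08 and 11.16 in CRST (1.03 ± 0.74). Its difference was 2.16 and -0.09 when CON replicate 1 and 2 were left out in turn, and 2.07 and -0.00 when CRST replicate 1 and 2 were. Wfdc2, the other named choroid plexus probe, had low signals of 7.66 to 7.86.

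**Figure D4:**
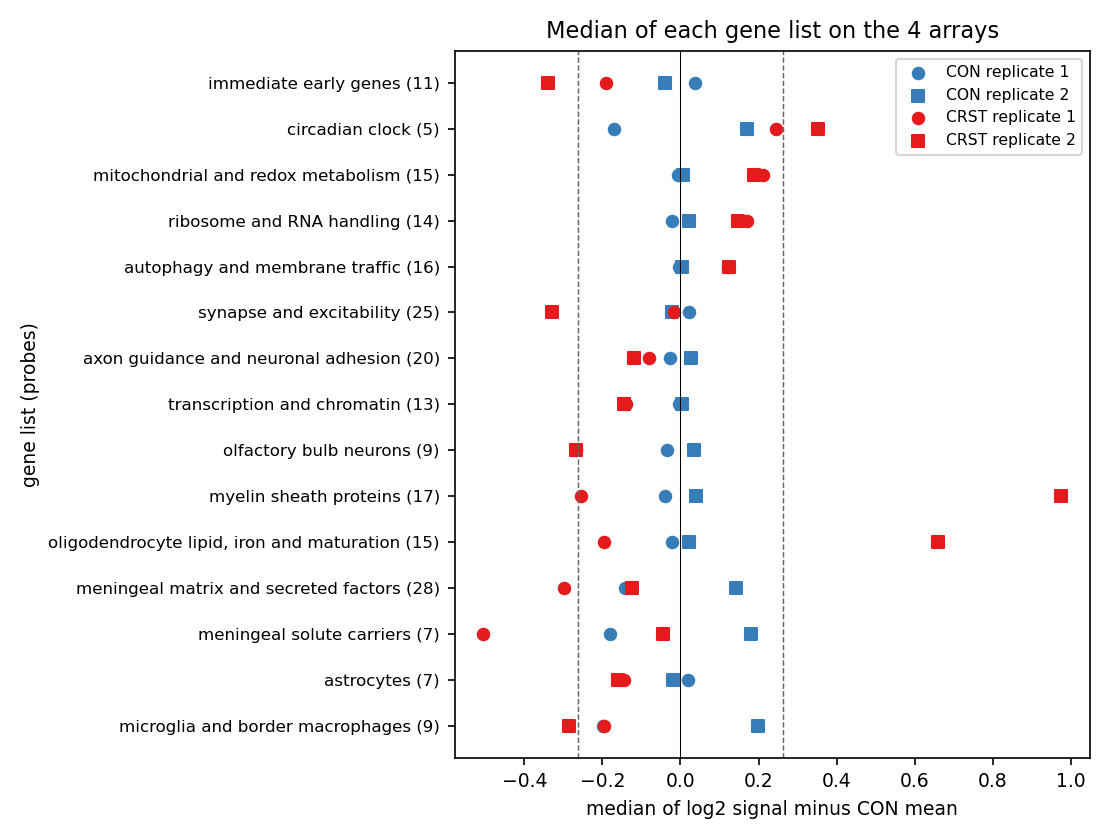
Median over the probes of each gene list (rows, number of probes in brackets) of the log2 signal minus the CON mean on each CON (blue) and CRST (red) array; circles are replicate 1, squares replicate 2, and dashed lines mark 1.2-fold. The CRST medians lie together for lists such as the mitochondrial, ribosomal, traffic, chromatin, olfactory bulb and astrocyte genes. They lie apart on the same side for immediate early genes, and on opposite sides of 0 for myelin and oligodendrocyte genes. The ribosomal, traffic and chromatin lists hold genes past 1.2-fold in both directions, so close medians do not show that their genes hold on both arrays.

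Several held probes lay near the detection limit. Of the 215 probes past 1.2-fold, 190 were detected on all 4 arrays, and so were 31 of the 36 held. Lypla1, an enzyme that removes palmitate from proteins, was detected on neither CON array and on both CRST arrays, so that it was at least 1.10-fold higher in CRST. Gtpbp8, a GTP-binding protein, was likewise at least 1.04-fold higher, and Acsm4, an acyl-CoA synthetase known from olfactory epithelium, was detected on neither CRST array and at least 1.05-fold lower. These bounds set the mean of the group with signal against the higher of the undetected value and the lowest detected signal of each array. Mb21d1, the DNA sensor cGAS, and Tuba3b, an alpha tubulin, were detected on 1 CON array, at differences of 0.31 ± 0.09 and 0.29 ± 0.09. Without CON replicate 2 Mb21d1 stood at 0.24, and without CON replicate 1 Tuba3b stood at 0.23. Tmem90a at 0.26 and Mlph at -0.26 were the named probes just inside the criterion of 1.2-fold, and Ankrd46 at 0.26 and Bgn at -0.26 lay just outside it. Of 12 genes with several named probes, 11 had the same sign on all of them; the probes of Neto1, an auxiliary subunit of kainate receptors, stood at 0.10 and -0.30.

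Under other processing, 24 of the 36 held probes were still held after scaling to a common median and 17 with 50 added before log2. With any single array left out, 20 of the 36 held probes stayed past 1.2-fold. The higher ones were Ciart, Dbp, Figf, Lypla1, Gm5797, Cyb5r1, Zhx1, Chmp5 and a probe without a name, and the lower ones were Arc, Dynll2, Pcdh21, Cd6, Calb2, LOC100046232, Ywhag, Emilin1, Zmynd11, Rab3ip and Pdlim7. Lypla1 passed the detection filter only through the CRST arrays, on which it was high, and it dropped out at a detection p under 0.01. Of the other 16 held probes, 10 fell under 1.2-fold without CON replicate 1 and 6 without CON replicate 2. The probe without a name had 9.80 and 9.94 in CON and 10.21 and 10.53 in CRST (0.50 ± 0.13). Pdlim7, a scaffold that links actin to kinases, had 9.68 and 9.67 in CON and 9.39 and 9.41 in CRST (-0.28 ± 0.09), and -0.22 after scaling to a common median.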

How the data were processed

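Transcripts of the PL were measured with mouse Ref-8 bead arrays. The authors extracted the signals with GenomeStudio 2011.1 (Gene Expression Module 1.9.0) and deposited an average signal intensity and a detection p-value per probe and array, and a log2 table normalized by quantiles. Whether background was subtracted is not given in the sources used here. From the deposited intensities, log2 values were computed and quantile normalized over all 6 arrays in R 4.3.3 with limma 3.58.1. On each array the correlation to the deposited log2 table was r = 0.999996.

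Arrays were grouped by their labels. Probes detected (p under 0.05) on both CON or both CRST arrays were compared by the difference of group means at 1.2-fold and by limma over 6 arrays with Benjamini-Hochberg adjustment. The number of arrays limits the precision. Each probe was counted on its own. Names came from Supplementary Data 2 and 3 (899 probes, 884 symbols), of which 851 matched a current RefSeq symbol; promoters are from RefSeq and matched 8 of 10 genes searched for 3 motifs. Fold-change columns in these tables were not used. Members and gene lists were chosen with earlier results of these data known. Genes were named by rule: the 15 higher and 15 lower probes with the widest gap between groups, the 5 higher and 5 lower overlapping probes with the largest difference, up to 5 members per described list, and Dusp1, which the study measured by RT-PCR. The held probes, Th, Romo1, Dusp16, Tbr1, Cux2, Wfdc2, the probes at the criterion and further list members were named after their values were seen. Alternatives covered scaling, background, added constant, filter, each array left out, replicate block, trend and the 4 arrays alone. The limma fit was also run on simulated data with known differences. Those differences were larger than nearly all seen here, and the noise was independent between probes. The simulation therefore does not show how the fit performs on these data.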

Additional observations from a re-analysis of the deposited data

Results flagged for a closer look

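Outside the comparison, 98 probes were detected on both CRST+RS5 arrays but on both arrays of neither CON nor CRST, with both CRST+RS5 arrays above both CON arrays. They are part of the 159 probes that the detection filter left out although both CRST+RS5 arrays detected them, and they were not analysed further here.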

How the results depend on the processing

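Counts moved with the background correction, the added constant and the arrays used; the cause was not tested. After normexp background correction 1361 probes were past 1.2-fold (696 higher, 665 lower), with 984 not overlapping and 545 held. With 50 added before log2 the values were 130 (61 higher, 69 lower), 72 and 17. Scaling to a common median gave 244 higher and 65 lower, a share of 79% higher against 47.4%, and moved the median of all probes by 0.05. Without a detection filter 56 probes were held. Leaving out 1 array gave 361 to 818 probes past 1.2-fold (146 to 419 higher and 215 to 399 lower), 337 to 817 not overlapping and 145 to 818 held, where a lone array takes the place of a mean. No setting but the fit without CRST replicate 1 gave an adjusted p under 0.05, and the number passing was 0 to 14 over the arrays left out.

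Of 88 gene differences, 12 changed sign under some setting, always with 1 array left out. The ranges over the arrays left out were -0.0895 to 2.16 for Ttr, -0.18 to 1.23 and -0.43 to 1.23 for the probes of Mobp, -0.20 to 1.08 for Fa2h, -0.31 to 1.13 for Mal, -0.23 to 1.04 and -0.32 to 1.12 for Mog, -0.26 to 1.02 for Mag, -0.29 to 1.05 for Opalin, -0.28 to 0.99 for Mbp, -0.9985 to 0.0077 for Ogn and -1.006 to 0.0703 for Slc13a4. The median of the myelin probes ranged from -0.26 to 0.97 and that of the oligodendrocyte probes from -0.20 to 0.66.

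Arrays were not paired by their replicate numbers, since the methods describe 2 independent sets of the groups, but no source ties a number to a set. Deviations of arrays with the same number correlated at r = 0.247 for CON and CRST, and CRST+RS5 deviated with CRST at 0.261 and with CON at 0.0510. In the fit with a replicate block 0 probes passed the adjusted p and 672 had an unadjusted p under 0.05, against 427 without it. Differences between CRST and CON arrays of the same number, computed after seeing the data, had medians of -0.22 (number 1) and -0.33 (number 2) for meningeal matrix probes and of -0.21 and -0.35 for meningeal solute carriers. For Ptgds, Ogn and Acta2 they were -0.72, -0.50 and -0.58 for number 1 and -0.52, -0.49 and -0.34 for number 2, so these genes were lower in CRST for both numbers, whereas the myelin medians were -0.21 and 0.93.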
